A study of Homo sapiens with 2 samples.

Results

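Transcription factors that set columnar and intestinal identity were examined in CP-A, a non-dysplastic cell line from Barrett's esophagus that was immortalized with human telomerase reverse transcriptase. The 9 factors were CDX1, CDX2, HNF4A, FOXA1, FOXA2, GATA4, GATA6, SOX9 and KLF5, a list set by gene symbol in the platform annotation of the arrays, with no threshold on a measured value. The annotation names 8 of them, which are described here among 17663 genes in all, and HNF4A was not analysed here. RNA of 1 culture exposed to pH 6.4 + DCA and RNA of 1 control culture without acid and DCA were each hybridized to 1 Clariom S human array. DCA, deoxycholic acid, is a secondary bile acid, and the methods describe 3 exposures of CP-A cells, each for 48 h, to acidic medium with 100 µM DCA. Both cultures were of the same line, grown in a serum-containing medium with epidermal growth factor, hydrocortisone and cholera toxin. For RNA used in quantitative PCR, the methods describe nocodazole before extraction, to bring cells into mitosis. Whether the array RNA came from cells treated in that way is not stated. Expression is given as the deposited log2 level of each gene. Each condition had a single array, which leaves no replicate error and allows no test, and the words higher and lower are kept as calls for a change of at least 2-fold. On the pH 6.4 + DCA array, 444 of all genes were higher, or 2.51%, and 727 were lower, or 4.12%. Among the 8832 genes whose mean level was not under the median, the shares were 3.23% and 5.85%.

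In Barrett's esophagus the squamous lining of the lower esophagus is replaced by columnar epithelium with intestinal features. CDX1 and CDX2 are homeobox factors of the intestine, and HNF4A is a nuclear receptor of the intestine and liver. FOXA1 and FOXA2 are forkhead factors that bind closed chromatin and open it, and GATA4 and GATA6 are zinc finger factors of foregut and gut endoderm. SOX9 acts in intestinal crypts and in columnar progenitors, and KLF5 is a zinc finger factor of dividing epithelia, squamous and columnar alike.

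FOXA2 was lower on the pH 6.4 + DCA array, and it was the only one of the 8 measured factors to pass 2-fold. GATA6 and FOXA1 came next in size below control, and CDX2, GATA4, KLF5 and SOX9 differed little. CDX1 was the only factor with a difference above 0, at levels where the arrays give little signal. Of the 8 factors, 1 was lower, 0 were higher and 7 were neither, beside 4.12% lower among all genes. The factors had a median log2 difference of -0.18, and all genes one of -0.00016. A call of 1 gene among 8 is not read as a property of the group. In a bulk culture, fewer cells that make a transcript and less of it per cell cannot be told apart.

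**Figure D1:**
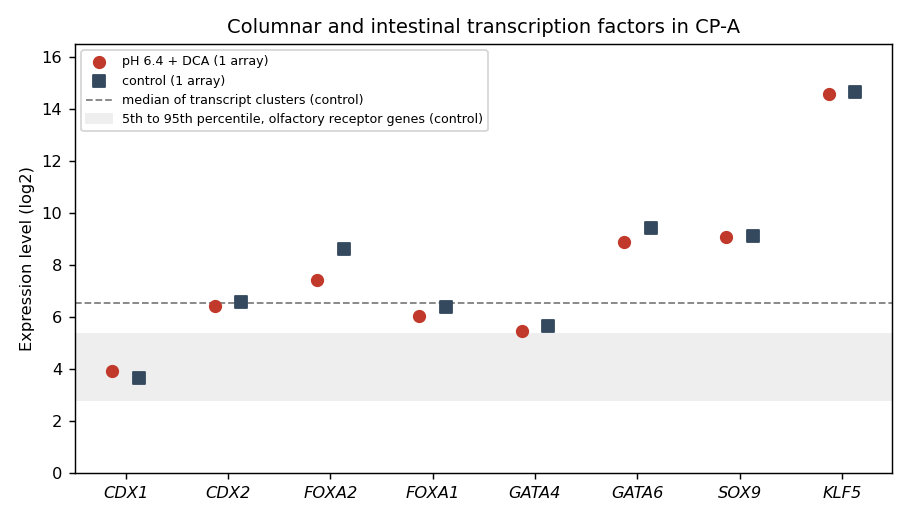
Log2 expression level of each of the 8 factors on the pH 6.4 + DCA array (circles) and the control array (squares), 1 array each. The dashed line is the median of all transcript clusters on the control array and the grey band the 5th to 95th percentile of olfactory receptor genes there; CDX1 lies inside the band, KLF5 far above it, and FOXA2 has the widest gap between the arrays.

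Factors of this kind are known to regulate one another. Promoter sequence is shown for CDX2 and FOXA1, because both hold a match to the motif of FOXA2, the called gene, and for GATA6, because its difference came next in size. The sequences are the 250 bases before the annotated start of each gene in RefSeq, build GRCh38.p14, written 5′ to 3′ on the strand of the gene: chr13:27969316-27969565 on the minus strand for CDX2, chr14:37595250-37595499 on the minus strand for FOXA1 and chr18:22169339-22169588 on the plus strand for GATA6. Capitals mark every match to 5 short motifs searched on both strands, TGTTTNC for FOXA factors, AGATAA for GATA factors, TTTATG for CDX factors, ACAANG for SOX factors and CCACCC for KLF factors.
CDX2: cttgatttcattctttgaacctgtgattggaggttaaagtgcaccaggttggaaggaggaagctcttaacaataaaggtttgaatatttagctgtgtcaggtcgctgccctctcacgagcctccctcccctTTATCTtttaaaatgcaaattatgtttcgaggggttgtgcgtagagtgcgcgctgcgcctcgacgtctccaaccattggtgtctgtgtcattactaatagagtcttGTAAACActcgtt
FOXA1: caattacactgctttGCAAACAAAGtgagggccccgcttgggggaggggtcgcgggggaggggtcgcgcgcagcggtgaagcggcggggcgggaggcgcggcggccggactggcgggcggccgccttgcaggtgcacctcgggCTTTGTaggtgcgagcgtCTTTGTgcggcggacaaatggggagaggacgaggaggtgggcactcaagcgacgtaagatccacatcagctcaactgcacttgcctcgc
GATA6: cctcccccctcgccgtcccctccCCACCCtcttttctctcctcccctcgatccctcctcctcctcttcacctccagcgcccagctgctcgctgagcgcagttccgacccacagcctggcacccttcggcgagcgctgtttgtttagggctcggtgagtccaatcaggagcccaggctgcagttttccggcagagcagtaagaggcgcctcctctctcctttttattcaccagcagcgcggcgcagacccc
The CDX2 window held 1 FOXA match on the opposite strand, GTAAACA, from 13 to 7 bases before the start, and 1 GATA match on that strand, TTATCT, from 119 to 114 bases before it. The FOXA1 window also held 1 FOXA match on the opposite strand, GCAAACA, from 235 to 229 bases before the start, which overlaps the first of its 3 SOX matches. The GATA6 window held 1 KLF match and no other. Among 34961 windows of this length in the RefSeq table, 15.5% held a FOXA match, 9.18% a GATA match, 9.63% a CDX match, 30.8% a SOX match and 31.3% a KLF match. A match is a description of the letters and no evidence of binding. Windows of KLF5, at 2 starts, were also searched and are not printed. Matches were not listed for GATA4, HNF4A, FOXA2, CDX1 or SOX9.

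Among the forkhead factors, FOXA2 was lower on the pH 6.4 + DCA array and FOXA1 was not called. FOXA2 (TC2000008636.hg.1, chromosome 20) had a log2 level of 7.44 on the pH 6.4 + DCA array and 8.61 on the control array. The difference was -1.17, which is 2.25-fold lower and leaves 44.3% of the control level. Both levels lay between the median and the upper quartile of their array, above 99.7% and 100% of 349 olfactory receptor genes, which epithelial cells are not known to use and which show here what the arrays give for dim probe sets. Of all 17663 genes, 521 had a difference as low or lower, or 2.95%. FOXA1 (TC1400008981.hg.1, chromosome 14), the close relative of FOXA2, had 6.03 on the pH 6.4 + DCA array and 6.37 on the control array, a difference of -0.33 that is under 2-fold. Both FOXA1 levels lay between the lower quartile and the median. The third member of the family, FOXA3, a factor of liver and gut, had 4.35 on the pH 6.4 + DCA array and 4.32 on the control array, levels under the lower quartiles.

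GATA6 had the second largest difference below control, and GATA4 lay near the dim end. GATA6 (TC1800006852.hg.1, chromosome 18) had 8.88 on the pH 6.4 + DCA array and 9.40 on the control array. The difference of -0.53 leaves 69.4% of the control level and is under 2-fold. Over all genes, 13.8% had a difference as low or lower. GATA4 (TC0800006752.hg.1, chromosome 8) had 5.46 on the pH 6.4 + DCA array and 5.66 on the control array, a difference of -0.20. These GATA4 levels lay above 95.1% and 96.3% of the olfactory receptor genes. Of the other GATA genes, GATA1, the factor of red cell precursors, had 6.69 on the pH 6.4 + DCA array and 6.79 on the control array. Both GATA1 levels were above those of GATA4, so a place above the olfactory receptor genes does not show that a factor is expressed.

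The intestinal homeobox factors showed no call. CDX2 (TC1300008449.hg.1, chromosome 13) had 6.42 on the pH 6.4 + DCA array and 6.59 on the control array, a difference of -0.17, and both levels lay close to the median of the arrays. CDX1 (TC0500009083.hg.1, chromosome 5) had 3.91 on the pH 6.4 + DCA array and 3.64 on the control array, a difference of 0.27. Both CDX1 levels lay under the lower quartile, above 58.5% and 45.6% of the olfactory receptor genes, so that they do not stand apart from dim signal. The third gene of the family, CDX4, had 4.40 on the pH 6.4 + DCA array and 4.92 on the control array. Differences of olfactory receptor genes ran from -0.59 at the 5th percentile to 0.76 at the 95th, and 12 of the 349 passed 2-fold, 7 higher and 5 lower. The difference of CDX1 lay inside that range.

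SOX9 and KLF5 had nearly equal levels on both arrays. SOX9 (TC1700008794.hg.1, chromosome 17) had 9.07 on the pH 6.4 + DCA array and 9.10 on the control array, a difference of -0.03. KLF5 (TC1300007491.hg.1, chromosome 13) had 14.57 on the pH 6.4 + DCA array and 14.65 on the control array, a difference of -0.09. KLF5 was above 98.6% of all genes on the pH 6.4 + DCA array and above 98.5% on the control array, though levels of different probe sets are not comparable in a strict sense. The sign of both differences turned under 1 of 7 scalings and row choices, with values of up to 0.03 for SOX9 and 0.0024 for KLF5, so that neither has a direction.

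**Figure D2:**
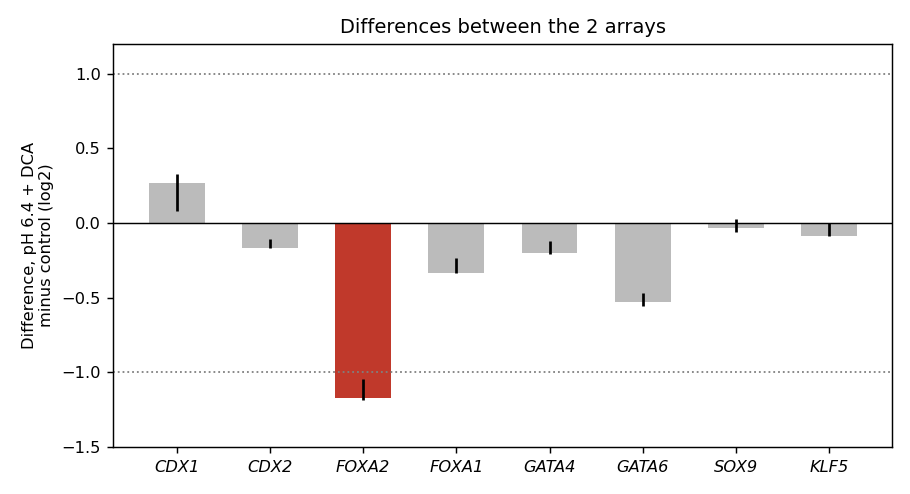
Difference in log2 level, pH 6.4 + DCA minus control, for each of the 8 factors, with 2-fold marked by dotted lines. Bars are the deposited values, the called gene in red, and black lines span the values under the alternative scalings and row choices, not replicate error; FOXA2 lies beyond 2-fold in all of them, from -1.18 to -1.04.

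The place of FOXA2 and GATA6 in the genome was examined next, since the median difference was not the same for all chromosomes. The 10 measured genes on either side of FOXA2 in gene order had a median difference of -0.15, from -0.92 to 0.48, and 13 of the 20 lay below 0. None of these 20 neighbours passed 2-fold, and the difference of FOXA2 lay below each of theirs. The other 497 measured genes of chromosome 20 had a median of -0.05, or -0.11 over the 255 of them that were not under the median level. Around GATA6, the 20 neighbours had a median of 0.23, from -1.28 to 1.56, with 1 higher and 1 lower. The other 249 genes of chromosome 18 had a median of -0.09, or -0.21 over the 131 of them that were not under the median level. Of the 20 neighbours of GATA6, 7 lay below 0. For CDX1, CDX2, FOXA1, GATA4, SOX9 and KLF5, the medians of the neighbours ran from -0.09 around FOXA1 to 0.12 around KLF5. CDX1, at 0.27, lies on chromosome 5, where its 20 neighbours had a median of 0.06 and the other 756 genes one of 0.19. Over the 421 of these genes that were not under the median level, it was 0.29. The paper measured copy number in CP-A after acid and DCA by comparative genomic hybridization. Among other changes it reported loss in chromosomes 5 and 8, where CDX1 and GATA4 lie, and gain in chromosomes 18 and 20. It also reported that CP-A had alterations in chromosomes 1, 8 and 20 before treatment. Copy number was not analysed here, and its part in these differences was not tested.

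**Figure D3:**
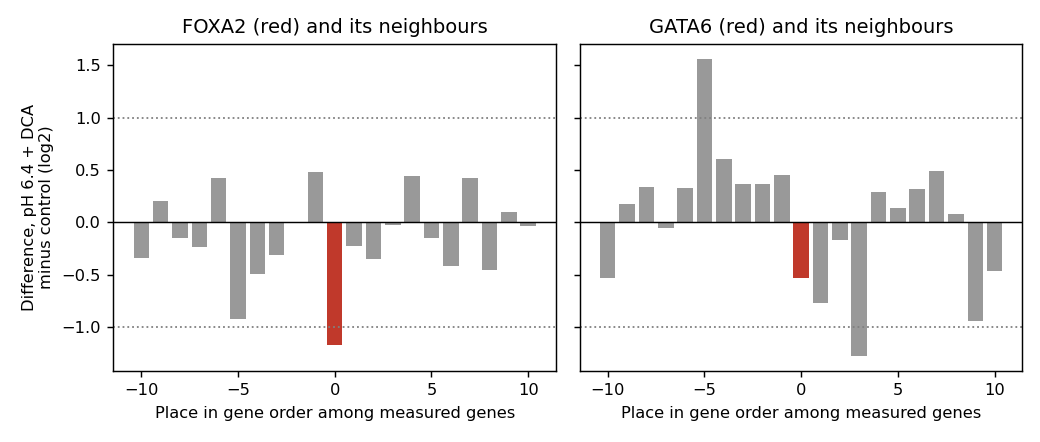
Difference in log2 level, pH 6.4 + DCA minus control, for FOXA2 (left, red) and GATA6 (right, red) and the 10 measured genes on either side in gene order (grey). Dotted lines mark 2-fold; no neighbour of FOXA2 reaches it, while 1 neighbour of GATA6 is higher and 1 is lower.

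Paralogues of the factors and factors that work with them were set beside these values. Counts for this and each later list stand beside 2.51% higher and 4.12% lower among all genes. A few calls in a list are not read as a property of it. Of 17 measured paralogues, 1 was lower and 0 were higher, with a median of -0.03. The lower one was HNF4G, the relative of HNF4A that is active in gut epithelium, with 4.31 on the pH 6.4 + DCA array and 6.10 on the control array, 3.45-fold lower. The pH 6.4 + DCA level of HNF4G lay under the lower quartile, and after an offset of 32 was added to the linear values, which damps dim signal, its difference was -0.95, under 2-fold. Of 17 measured partner factors, none passed 2-fold, and the median was 0.19. They include ISX, an intestinal homeobox factor, with 4.96 on the pH 6.4 + DCA array and 4.61 on the control array. PDX1, the homeobox factor of pancreas and duodenum whose gene is close to CDX2 on chromosome 13, had 3.77 on the pH 6.4 + DCA array and 3.76 on the control array. Of the partner factors, 16 lay under the median on each array. KLF13 of the paralogues was not analysed here.

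Most genes that these factors are known to turn on in the intestine were dim on both arrays. Of 27 measured intestinal target genes, 2 were lower and 0 were higher, the median difference was 0.16, and 25 lay under the median of each array. The list median was 0.06 with the offset of 32 and 0.0053 without rows under the 25th percentile. The 2 genes above the median, named after their values were seen, were the adhesion molecules CEACAM5, with 7.24 on the pH 6.4 + DCA array and 7.69 on the control array, and CEACAM6, with 6.74 on the pH 6.4 + DCA array and 7.22 on the control array. VIL1, which encodes the microvillus protein villin and is a target of CDX2, had 3.49 on the pH 6.4 + DCA array and 3.38 on the control array. CDH17, an intestinal cadherin and a target of CDX2, had 3.97 on the pH 6.4 + DCA array and 3.58 on the control array. These values leave both genes within the range of dim signal. The goblet cell mucin MUC2 had 4.24 on the pH 6.4 + DCA array and 4.56 on the control array, and the goblet cell peptide TFF3 had 4.64 on the pH 6.4 + DCA array and 4.22 on the control array. Both lay under the median of the arrays. The 6 genes set as intestinal cell markers, these 4 with LGALS4 and GPA33, reached at most 5.15 on the pH 6.4 + DCA array and 4.94 on the control array, under the 95th percentile of the olfactory receptor genes at 5.42 and 5.35, whereas CEACAM5, CEACAM6, CDHR2 and ANPEP of the wider list lay above it on both arrays. CDX2 itself was above 99.1% of those genes on the pH 6.4 + DCA array and 99.4% on the control array. GATA1, of red cell precursors, had 6.69 on the pH 6.4 + DCA array and 6.79 on the control array, above CDX2 on both. The leukocyte marker PTPRC, with 5.07 and 5.03, lay below CDX2. The place of CDX2 above olfactory receptor genes therefore does not show that it is expressed.

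The lower genes of this list were also dim. FABP1, the fatty acid binding protein of liver and gut, had 2.73 on the pH 6.4 + DCA array and 3.87 on the control array, 2.20-fold lower. CA1, a carbonic anhydrase of the colon, had 3.95 on the pH 6.4 + DCA array and 4.99 on the control array, 2.07-fold lower. With the offset of 32 the differences of FABP1 and CA1 were -0.27 and -0.43. The call of CA1 was also lost with median centring. Among 14 measured HNF4A target genes, FABP1 was the only lower one, 0 were higher, and the median was 0.09. The apolipoprotein genes APOA1 and APOB had differences of -0.38 and 0.49, APOA4 0.29 and APOC2 -0.19, all under 2-fold. The level of APOA1 was 5.41 on the pH 6.4 + DCA array and 5.78 on the control array.

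The columnar keratins KRT7, KRT8, KRT18 and KRT19 were at high levels on both arrays, and 3 columnar genes, KRT18 among them, were lower on the pH 6.4 + DCA array. Of 20 columnar genes measured, 1 was higher, 3 were lower and the other 16 were not called, beside 2.51% higher and 4.12% lower over all genes, and the median difference was -0.44. This median was -0.18 with the offset of 32 and -0.63 without rows under the 25th percentile. EPCAM, an epithelial adhesion molecule, had 10.61 on the pH 6.4 + DCA array and 12.18 on the control array, 2.96-fold lower. CLDN7, a claudin of tight junctions, had 10.996 on the pH 6.4 + DCA array and 12.52 on the control array, 2.88-fold lower. KRT18, a keratin of simple epithelia, had 12.66 on the pH 6.4 + DCA array and 14.13 on the control array, 2.77-fold lower. The pairing partner of KRT18, KRT8, had a difference of -0.64, KRT7 -0.63 and KRT19 -0.63, all below control and under 2-fold. MUC1, a membrane mucin, was higher, with 11.91 on the pH 6.4 + DCA array and 9.20 on the control array, or 6.54-fold. With the offset of 32 the differences of EPCAM, CLDN7, KRT18 and MUC1 were -1.55, -1.51, -1.47 and 2.64, so the calls did not rest on dim signal. AGR2, a protein of mucus-secreting cells and a known target of FOXA factors, was chosen after its values were seen. It had 7.80 on the pH 6.4 + DCA array and 6.86 on the control array, a difference of 0.95 that is under 2-fold. With median centring AGR2 passed 2-fold, and 2 columnar genes were higher. Whether AGR2 depends on FOXA2 in these cells was not tested. The gastric markers TFF1, TFF2, MUC5AC, MUC6, CLDN18, GKN1 and PGC, also outside the rule for named genes, lay under the median on both arrays.

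Squamous epithelial genes, like the columnar ones, had a median below 0. Of 11 measured, 1 was higher, 2 were lower and 8 were not called, and the median was -0.60. KRT14, a keratin of basal squamous cells, had 11.54 on the pH 6.4 + DCA array and 14.42 on the control array, 7.38-fold lower. KRT13, a keratin of suprabasal squamous cells, had 4.77 on the pH 6.4 + DCA array and 5.77 on the control array, 2.01-fold lower, with a difference of -0.55 after 32 was added. The call of KRT13 was also lost with median centring. SERPINB3, a serpin of squamous epithelium, was higher, with 7.54 on the pH 6.4 + DCA array and 6.22 on the control array. KRT5, the partner of KRT14, had 16.40 on the pH 6.4 + DCA array and 17.00 on the control array, a difference of -0.60. The factor SOX2, which marks foregut progenitors and squamous cells, had 6.05 on the pH 6.4 + DCA array and 5.74 on the control array, and PAX9 had 7.18 on the pH 6.4 + DCA array and 7.43 on the control array. CP-A thus carried the squamous keratins KRT5 and KRT14 at high levels beside KRT7, KRT8, KRT18 and KRT19, while the 6 intestinal cell markers were dim. Not all squamous genes were at high levels. Of the 11, 5 lay under the median on the pH 6.4 + DCA array and 6 on the control array. KRT13, SOX2, IVL, PKP1 and GRHL3 were under it on both. TP63, KRT15 and KRT6A were not analysed here.

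**Figure D4:**
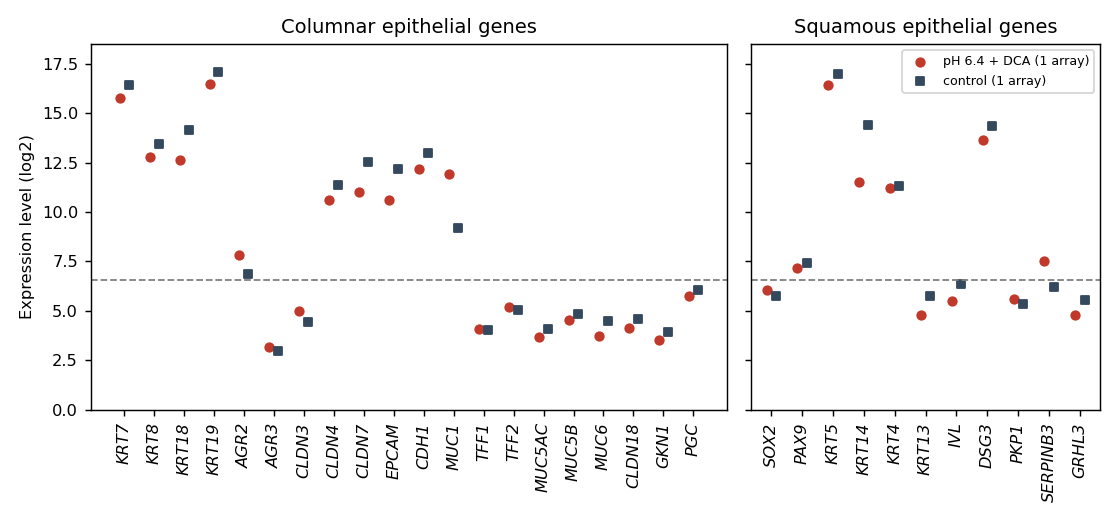
Log2 expression level of 20 columnar (left) and 11 squamous (right) epithelial genes on the pH 6.4 + DCA array (circles) and the control array (squares), 1 array each, with the median of all transcript clusters on the control array dashed. KRT5, KRT7 and KRT19 lie near the top, the gastric markers lie under the median, MUC1 is higher on the pH 6.4 + DCA array and KRT14 lower.

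Crypt genes and the hedgehog pathway, which is known from mouse esophagus to act upstream of SOX9 and FOXA2, were also examined. Of 14 measured genes of the crypt list, 1 was lower and 0 were higher, with a median of 0.14. The lower one was LRIG1, which restrains growth factor receptors in stem cells, with 6.24 on the pH 6.4 + DCA array and 7.31 on the control array, 2.11-fold lower and at -0.83 with 32 added. LGR5, the marker of intestinal stem cells, had 3.77 on the pH 6.4 + DCA array and 3.34 on the control array, and OLFM4, ASCL2 and SMOC2 had differences of 0.64, -0.20 and 0.16. Of 13 measured hedgehog genes, 12 had a difference above 0, beside 8799 of all 17663 genes. The median of the list was 0.42, 1 gene was higher and 0 were lower. The higher one was CDON, a co-receptor for hedgehog ligands, with 5.36 on the pH 6.4 + DCA array and 3.78 on the control array, 3.01-fold, and 0.68 with 32 added. PTCH1, the receptor that is also a target of the pathway, had 9.06 on the pH 6.4 + DCA array and 8.33 on the control array, a difference of 0.73. The only gene of the list below 0, named after its values were seen, was GLI1, a transcription factor and target of the pathway. GLI1 had 5.02 on the pH 6.4 + DCA array and 5.36 on the control array, a difference of -0.34. Activity of the pathway was not tested. The ligands SHH and IHH had differences of 0.52 and 0.43 at levels no higher than 5.02, and 12 of the 13 genes lay under the median on each array. With the offset of 32 the median of the hedgehog list was 0.14.

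**Figure D5:**
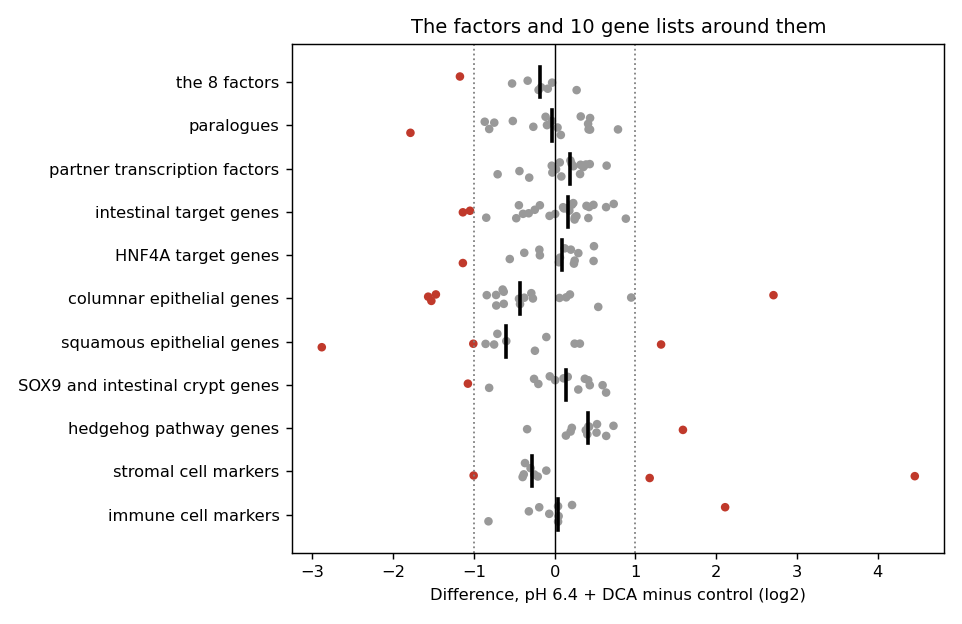
Difference in log2 level, pH 6.4 + DCA minus control, for the 8 factors (top row) and the measured genes of 10 lists, each dot a gene, red at 2-fold or more (dotted lines), the black bar the median. Medians run from -0.60 for squamous epithelial genes to 0.42 for hedgehog genes, and the factors have 1 red dot, FOXA2.

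Markers of other cell types were checked for the same arrays. Of 10 measured stromal markers, 2 were higher and 1 was lower, with a median of -0.28. The proteoglycans DCN and LUM were higher, DCN with 13.29 on the pH 6.4 + DCA array and 8.83 on the control array and LUM with 5.28 on the pH 6.4 + DCA array and 4.10 on the control array. With the offset of 32 the difference of LUM was 0.53, under 2-fold. THY1, a surface protein of fibroblasts, had a difference of -1.003, just past 2-fold lower, and this call was lost with centring, with quantile normalization and with the offset. The collagens COL1A1 and COL1A2 had differences of -0.30 and -0.25, and PDGFRA and PDGFRB -0.40 and -0.37. Of 9 measured immune markers, 1 was higher, CD14, a receptor for bacterial lipopolysaccharide, with 8.45 on the pH 6.4 + DCA array and 6.34 on the control array, and 0 were lower. The defining leukocyte marker PTPRC had 5.07 on the pH 6.4 + DCA array and 5.03 on the control array, under the median of both, and CD3E had 5.77 and MS4A1 3.87 on the pH 6.4 + DCA array, against 5.73 and 3.82 on the control array. Summed on the linear scale, the stromal list came to 10648 on the pH 6.4 + DCA array and 1206 on the control array, most of it from DCN on the pH 6.4 + DCA array. Without DCN the other 9 genes came to 636 on the pH 6.4 + DCA array and 751 on the control array, and 8 of the 10 stromal markers had a difference below 0. The immune list came to 2104 on the pH 6.4 + DCA array and 1728 on the control array. No marker was at 0, since the arrays give every probe set a level. The part of other cell types in the difference of FOXA2 was not tested.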

How the data were processed

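The authors deposited log2 expression levels in 1 table of 21448 rows, made in Transcriptome Analysis Console 4.0 according to the submitters' processing notes. How they corrected background, summarized probes and normalized, and which genome build they used, is not given in the sources used here. Their range shows a log2 scale. Of the rows, 20893 are transcript clusters and 555 are unmapped transcripts, which were left out. Symbols came from the platform annotation (17709 rows with 1 symbol, 3739 with none), and chromosomes, gene order and promoters from RefSeq GRCh38.p14. For each gene the row with the highest mean was kept, without the Y chromosome, which gave 17663 genes. Differences were pH 6.4 + DCA minus control, called at 2-fold as in the methods, with no test, since each condition had 1 array, and their number limits the precision. The factors and the 10 gene lists were chosen with earlier results of these data known. Named from a list were up to 5 called genes by size of difference and its first 4 entries. Other names are cell type markers or neighbours, or are said to be chosen later. Alternatives were median centring, quantile normalization, removal of a lowess trend (span 0.3), an offset of 32 on the linear values, thresholds of 1.5 and 3, the mean of a gene's rows, rows under the 25th percentile left out, and all rows. Calculations used Python 3.11.15, numpy 2.4.6, pandas 2.3.3, scipy 1.17.1, statsmodels 0.14.6 and matplotlib 3.10.9. The calling step was checked on simulated data with large planted differences and little noise, which gives no rate of false calls for these arrays.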

Additional observations from a re-analysis of the deposited data

How the results depend on the processing

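FOXA2 was called lower under 8 of the 9 alternatives. Of these, the threshold of 1.5-fold could not undo the call. The FOXA2 difference of -1.17 was also unchanged with the mean of a gene's rows, with all rows and without dim rows. Centring, quantile normalization, lowess and the offset did change its value, and the call was kept. At a threshold of 3-fold 0 factors were lower, and at every threshold and scaling 0 were higher. The median of the factors lay below 0 in each alternative that gives one, from -0.20 to -0.12. CDX1 has no value where rows under the 25th percentile were left out. Over all lists together, 6 genes were higher and 10 lower of 150 measured, beside 2.51% higher and 4.12% lower among all genes. At a threshold of 1.5-fold these were 15 and 27, beside 10.6% and 11.8% of all genes. At 3-fold 4 were higher and 2 lower, beside 0.49% and 1.49% of all genes. Under the offset of 32, 4 were higher and 4 lower, beside 1.40% and 2.83%. Of 70 list medians, 60 kept their sign and moved by no more than 0.1. Those taken with the mean of a gene's rows or with all rows equalled the main values and add no support. The median of the paralogues turned to 0.02 with centring, and that of the immune markers to -0.01 without dim rows. Levels near those of olfactory receptor genes limit CDX1, the intestinal targets and most hedgehog genes. No paired analysis was possible because each condition had 1 array, and for the same reason no array could be left out.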

Other observations

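The wider families of the factors were read after the values above had been seen. Of 46 measured forkhead genes, 2 were lower and 0 were higher, beside 4.12% lower among all genes, with a median of 0.07. Beside FOXA2 the lower one was FOXM1, a factor of dividing cells, with a log2 level of 7.33 on the pH 6.4 + DCA array and 10.51 on the control array, 9.05-fold lower. Of 18 measured SOX genes, 1 was lower and 0 were higher, with a median of -0.02. It was SOX15, with 7.11 on the pH 6.4 + DCA array and 9.28 on the control array, 4.51-fold lower. Of 16 measured KLF genes and 6 GATA genes, 0 passed 2-fold. KLF differences ran from -0.87 to 0.78, with KLF3 lowest and KLF4, a factor of epithelial differentiation, highest, and 5 of the 6 GATA genes lay below 0, GATA6 lowest at -0.53.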
